A study of Helix lucorum with 35 samples.

Results

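The 91 contigs described here were chosen by their measured values: they were higher in the activated than in the control part of all 5 snails of the second experiment (E2) that gave both libraries, and had a mean difference close to or below 0 in the first experiment (E1). Levels were CPM, the count of a contig per 1000000 counts of its library. For each snail the difference was log2((activated + 0.5)/(control + 0.5)), and a contig was taken when all 5 E2 differences were above 0, their mean was at least 1, and the mean of the 6 E1 differences was below 0.3. Of the 693041 contigs in the assembly, 787 met the E2 conditions, and 91 of these (11.6%) also met the E1 condition. The 91 were ordered by their smallest E2 difference, and the place of a contig below is its place in that order.

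The series asks which immediate early genes respond to neuronal activation in the parietal ganglia (PaG) of the terrestrial snail Helix lucorum. Immediate early genes are transcribed within minutes of a stimulus from factors already present in the cell, so their transcripts still rise when protein synthesis is blocked. Serotonin (5-HT) is the transmitter that signals noxious stimuli and reinforcement in molluscan defensive circuits, anisomycin blocks protein synthesis, and caffeine raises calcium in the cell. Many immediate early genes encode transcription factors, c-fos being the best known. The giant premotor interneurons Pa2 and Pa3 drive withdrawal behaviour.

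In both experiments the activated part was kept for 10 min in saline with 20 µM anisomycin, and then for 20 to 25 min in anisomycin to which 5-HT (5 µM) and caffeine (100 µM) were added. The control was the opposite part of the same nervous system, frozen before any drug was given. The comparison therefore covers stimulation, anisomycin, change of saline and the time after the control part was cut out together. In E2 (6 activated and 6 control libraries, snails 7 to 13) the tissue was a small medial piece of the PaG with mainly the bodies of Pa2 and Pa3. In E1 (6 activated and 6 control libraries, snails 1 to 6) it was a whole side of the PaG, the left side with the visceral ganglion still attached according to the methods, although a figure legend of the study states that this ganglion was not used. Fewer cells of a type and less RNA per cell cannot be told apart in such bulk samples. The files pair contigs with no gene name, so no role can be given to a member and the labelled tissue could not be checked by marker genes. Only contig 1398029, which the study assigned to c-fos/fosl2, has a name, and it is not among the 91. In the study an annotated protein had several contigs on average. Members may thus belong to the same gene, and counts of contigs are not counts of genes.

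Depth differed widely between libraries. The total count per library was 926483 to 29646674 in activated E2 samples and 8551169 to 28246558 in control E2 samples, and 4704660 to 30474228 in activated E1 samples and 3513906 to 35225724 in control E1 samples. The activated E2 library of snail 9 was the shallowest, so that 1 count there equals 1.08 CPM, and 46 of the 91 contigs had fewer than 3 counts in it. Side was not balanced in E2. The activated part was the left one in 4 of the 5 snails used to choose the contigs, and the right one only in snail 9, whereas in E1 it was the left one in 3 of 6 snails. Activated snail 7 (right side) and control snail 12 (left side) had no partner library and took no part in the choice.

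All 91 contigs passed the filter for expression in E2 (a total count above 10 over 12 libraries) and 89 passed it in E1. They were mostly scarce. The mean level of a member had a median of 1.96 CPM in activated E2 samples and 0.594 CPM in control E2 samples. In E1 the same medians were 1.19 CPM in activated and 1.22 CPM in control samples. The highest mean in control E2 samples, 123 CPM, belonged to the member at place 53.

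The E2 differences that chose the contigs were mostly modest on the scale of the rule. The 0.5 CPM added to both parts draws the difference of a scarce contig towards 0, and 63 of the 91 had a mean below 1 CPM in control E2 samples. The mean E2 difference lay between 1.00 and 5.19 with a median of 1.23. It was below 1.5 in 70 contigs, from 1.5 to below 2 in 14, and at least 2 in 7. The median difference of the 91 contigs was 1.21 in snail 8, 1.66 in snail 9, 0.86 in snail 10, 1.01 in snail 11 and 0.98 in snail 13. The smallest of the 5 differences was above 0.5 in 26 contigs and above 1 in 3, and the last members lay near 0, at 0.00097 and 0.00059. Just inside the other limits, the mean E2 difference was 1.003 and 1.007 (0.994 and 0.991 just outside), and the mean E1 difference was 0.297 and 0.293 (0.305 and 0.306 just outside). Without snail 9, 642 contigs met all conditions. Of the 91, 57 were among them, but only 1 was among the first 100 of the new order, the most that the rule keeps. No gap in the values separated the members from their neighbours, as the plot of E2 against E1 differences shows.

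**Figure D1:**
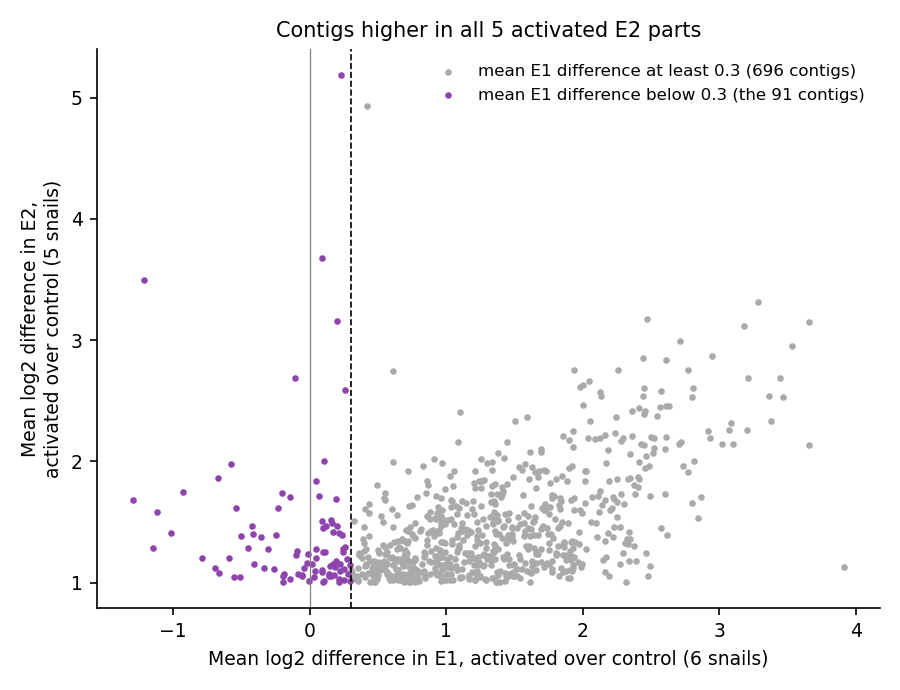
Mean log2 difference between activated and control parts in E2 (5 snails, vertical axis) against that in E1 (6 snails, horizontal axis) for the 787 contigs that met the E2 conditions, 1 point per contig. The 91 contigs lie left of the dashed line at 0.3, and the other 696 continue to its right without a gap.

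Because the choice used these libraries, the E2 test is a description only. With edgeR's exact test over all 12 E2 libraries (adjusted by the Benjamini-Hochberg method, threshold 0.05, and more than 2-fold), 5 of the 91 contigs were called higher, where 0.0239% of all 317414 expressed contigs were called higher. The 5 stood at places 1, 2, 3, 24 and 60, the last pair being named after their values were seen. With the snail as a replicate block in a quasi-likelihood fit, in which the 2 libraries without a partner carry no weight, 36 of the 91 were called higher, but so were 943 of all 317414 contigs, against 76 in the exact test. Without the block the quasi-likelihood test called 0 of the 91 and 0 of all 317414 contigs. At an unadjusted p below 0.05 there were 50 of the 91, against 3.84% of all contigs. DESeq2 called 9 of the 91 and 171 of all contigs higher. Without the activated library of snail 7 the exact test called 10 of the 91 and 66 of all contigs higher. It called 8 of the 91 and 144 of all contigs without that of snail 9. The counts were 3 and 34 without the control library of snail 13. In 9 of the 91 contigs all 6 activated libraries lay above all 6 control libraries, against 0.0696% of all expressed contigs.

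Contig 105745 stood first in the order and had the largest mean difference in E2. Its level was 145, 3.24, 27.3, 99.5 and 87.2 CPM in the activated parts of snails 8, 9, 10, 11 and 13, against 2.20, 0.446, 0.520, 0.221 and 0.586 CPM in their control parts. The 4 high libraries were all from the left side, and the lowest of the 5, snail 9, was from the right and rested on 3 counts. In the libraries not used for the choice, the activated part of snail 7 (right) had 0.200 CPM and the control part of snail 12 (left) had 0.317 CPM, so that the groups overlapped once these were included. Both left control parts of E2, those of snails 9 and 12, were as low as the right ones. Over all 12 libraries the log2 fold change was 6.53 (edgeR exact test, adjusted p = 0.0014). With side as a term in the quasi-likelihood test it was 4.06 with an adjusted p of 1, and the adjusted p was 0.55 in that test without this term. Each of these fits called 0 of all 317414 contigs, so nothing about this contig or about side is read from their adjusted p.

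In E1 the higher levels of contig 105745 were on the left in activated and control parts alike. Activated parts had 9.32, 26.7 and 0.0929 CPM on the left (snails 1, 2 and 3) and 2.89, 2.12 and 0 CPM on the right (snails 4, 5 and 6). Control parts had 27.8, 10.7 and 0 CPM on the left (snails 4, 5 and 6) and 1.30, 1.42 and 0 CPM on the right (snails 1, 2 and 3). The left part was higher in 5 of 6 snails, in snail 3 by only 2.83 counts against 0, and both parts were at 0 in snail 6. Left minus right averaged 1.95 ± 1.53 on the log2 scale (SD, n = 6, exact two-sided sign-flip permutation test, p = 0.0625). Because the difference of snail 6 was 0, this is the smallest p that the test could give here. Over all contigs, the edgeR quasi-likelihood test of side gave a log2 fold change of 3.24 with an adjusted p of 1 without the snail as a block, and 3.03 with an adjusted p of 2.18e-23 with the replicate block.

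The member at place 3 was similar to contig 105745 at a lower level. In E2 it had 17.5, 1.08, 2.33, 10.5 and 8.39 CPM in the activated parts of snails 8, 9, 10, 11 and 13, against 0.311, 0.117, 0.213, 0.110 and 0.135 CPM in their control parts. The value of activated snail 9 was a single count, and in the parts outside the choice it had 0.235 CPM in activated snail 7 and 0.107 CPM in control snail 12. Both were chosen to be higher in the same 5 activated E2 parts than in the control parts, so that much of their likeness in E2 is fixed by the choice. How their levels varied among the activated parts is not. Pearson's r of their log2 levels over the 12 E2 libraries, 0.98, mixes the fixed part with the rest. Over the 12 E1 libraries, which share snails and depth, Pearson's r of their log2 levels was 0.91. In E1 it averaged 0.98 ± 1.58 CPM in activated and 0.67 ± 1.07 CPM in control parts (SD, n = 6 each), and its highest values were 4.11 CPM in the left activated part of snail 2 and 2.81 CPM in the left control part of snail 4.

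Contig 549085, at place 2, was the opposite case: a scarce contig that was present in every activated E2 library on either side. It had 1.21, 1.95, 0.843, 1.04 and 0.988 CPM in the activated parts of snails 8, 9, 10, 11 and 13, and no count in any of the 6 control libraries. The activated part of snail 7, which the rule did not use, had 1.37 CPM (12.9 counts), and the control part of snail 12 had 0. In all, 85.7 counts fell in the 6 activated libraries, with 1.81 counts in the shallowest. With 3 counts over the 6 control libraries taken as the floor, the contig was at least 30.7-fold higher in activated samples. In the pair not used for the choice alone, it was at least 4.26-fold higher in activated snail 7, against a floor of 3 counts in control snail 12. The exact test gave an adjusted p of 7.32e-10, and the quasi-likelihood test gave 0.09 without the block, 0.40 with side as a term and 9.1e-05 with the replicate block. Without the block that test called 0 of all 317414 contigs, with or without side as a term. In E1 it had counts in 1 of 12 libraries, the right control part of snail 3, at 0.668 CPM (5.85 counts). No count fell in the 6 activated E1 libraries, although they received the same drugs.

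**Figure D2:**
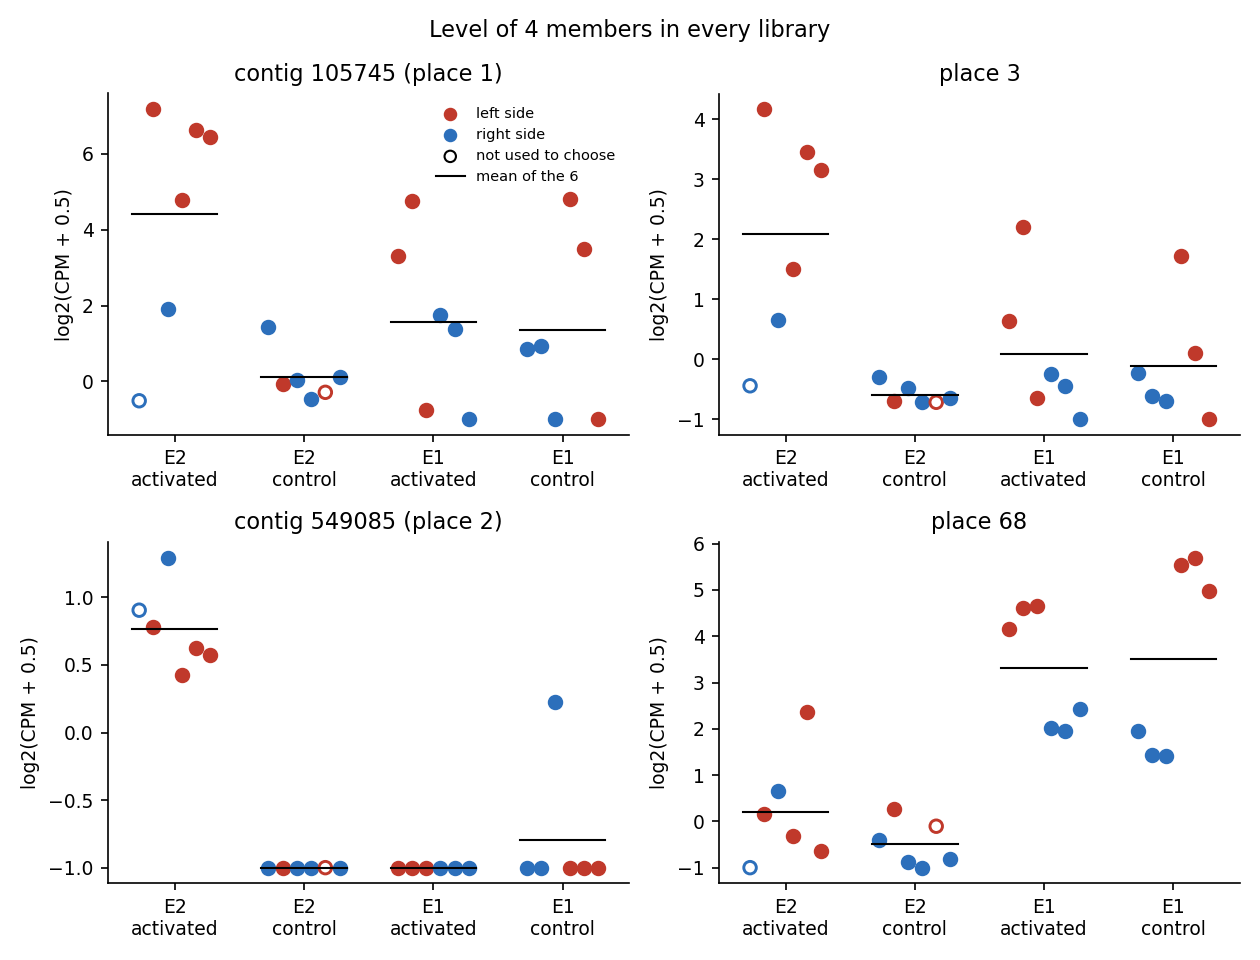
Level of 4 members in each of the 24 libraries as log2(CPM + 0.5), with 1 point per library, coloured by side, open where the library was not used to choose the contigs, and a line at the mean of 6. Contig 105745 and the member at place 3 have their highest values in left libraries, though not in every left library, contig 549085 is present in all 6 activated E2 libraries and 0 of 6 control E2 libraries, and the member at place 68 separates left from right in E1.

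Other members near the top of the order differed from these. The member at place 8 was abundant and did not overlap between groups in E2, with 69.6, 150, 87.7, 58.1 and 54.0 CPM in the activated parts of snails 8, 9, 10, 11 and 13, against 31.7, 47.9, 48.3, 30.8 and 28.5 CPM in the control parts. Activated snail 7 had 94.4 CPM and control snail 12 had 44.4 CPM, a difference in the same direction (1.08 on the log2 scale) in libraries outside the choice. In E1 this contig was at or near 0 CPM in both parts of snails 1 and 3 (0 and 0 CPM in activated, 0.345 and 0 CPM in control parts). In the remaining snails 2, 4, 5 and 6 it had 73.0, 34.6, 74.1 and 39.4 CPM in activated parts, against 52.5, 32.3, 47.0 and 37.2 CPM in control parts, higher in the activated part in all 4. Its mean E1 difference of 0.09 thus joins animals with many counts of the contig and animals with hardly any.

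The members at places 4 to 7, 9 and 10 were lower, with mean E2 differences from 1.16 to 1.98. Among them, the member at place 7 had 18.5 CPM in activated snail 9 and at most 7.16 CPM in the other activated E2 libraries, against 0 to 3.56 CPM in control libraries. That of place 5 had 4.41 to 8.22 CPM in the 5 activated parts chosen on, but 2.89 CPM in activated snail 7 and 11.9 CPM in control snail 12. The most abundant member, at place 53, ranged from 3.43 to 459 CPM in activated and from 1.44 to 338 CPM in control E2 parts. It was low in both parts of snail 8 (3.43 CPM activated, 1.44 CPM control), and in snail 10 it had 405 CPM in the activated against 20.0 CPM in the control part.

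The E1 values of the 91 contigs were spread about 0 and did not amount to a uniform absence of change. The mean E1 difference had a median of 0.04 and ran from -1.30 to 0.30. It was between -0.3 and 0.3 in 68 contigs, at or below -0.3 in 23, and below -1 in 5. In 39 of the 91 contigs at least 1 E1 snail had a difference above 1, and 25 contigs had a difference above 1 in 1 snail and below -1 in another. No contig was higher in the activated part of all 6 E1 snails, 6 were higher in 5 snails, and 2 were lower in all 6. By the exact test, 0 of the 89 expressed members were called in E1 (0 at an unadjusted p below 0.05), where 0.0861% of all 387774 expressed contigs were called. DESeq2 also called 0 of the 89, and of all contigs 507 higher and 7 lower. Without activated snail 6 the exact test called 1 member, that at place 51, as lower, and of all contigs 357 higher and 8 lower. With the replicate block the quasi-likelihood test called 0 of the 89. At an unadjusted p below 0.05 there were then 8 members, 0 of them higher, against 3.24% of all contigs. The E1 values were part of the choice, so nothing is read from these counts.

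The 2 contigs with the lowest mean E1 difference were 868735 and 426920. Contig 868735 (place 20) had 4.63, 2.24, 2.05, 0.197, 0.585 and 0 CPM in the activated E1 parts of snails 1 to 6, against 5.53, 7.22, 2.16, 2.20, 1.68 and 3.55 CPM in the control parts. It was lower in the activated part of each of the 6 snails, though the groups overlapped, and the mean difference was -1.30 ± 1.11 (SD, n = 6). In E2 it had 2.80, 5.84, 2.25, 0.831 and 3.44 CPM in the activated parts of snails 8, 9, 10, 11 and 13, against 0.244, 0, 1.34, 0 and 2.09 CPM in the control parts. The pair outside the choice went the other way, with 0.492 CPM in activated snail 7 and 2.31 CPM in control snail 12. Its adjusted p was 1 in the exact test of either experiment.

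Contig 426920 (place 51) was high or near 0 from library to library. In E2 it had 41.7, 59.7, 0.127, 18.7 and 15.9 CPM in the activated parts of snails 8, 9, 10, 11 and 13, against 0, 0, 0, 12.4 and 1.23 CPM in the control parts, and 29.4 CPM in activated snail 7 against 0 in control snail 12. In E1 it had 19.9 CPM in the activated part of snail 6 and 0 in the other 5, against 1.25, 13.6, 0, 0, 3.06 and 3.98 CPM in the control parts of snails 1 to 6. The log2 fold change was 3.34 in E2 (edgeR exact test, adjusted p = 1), and 4.90 with an adjusted p of 0.00015 in the quasi-likelihood fit with the replicate block.

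**Figure D3:**
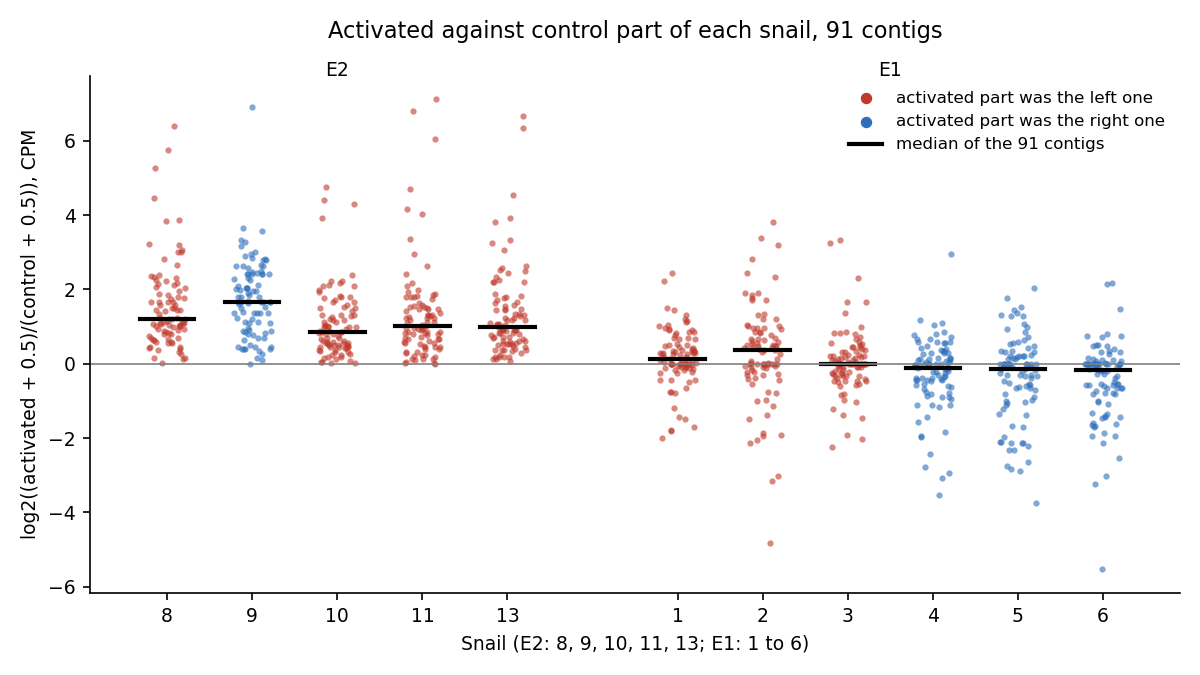
Log2 difference of activated over control part in each snail of E2 (left) and E1 (right) for the 91 contigs, 1 point per contig, coloured by the side of the activated part, with a line at the median of the 91. All E2 points lie above 0 by the choice, and the E1 medians are 0.14, 0.36 and 0.00 where the left part was activated and -0.10, -0.13 and -0.18 where the right part was.

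Whether the responses in E1 and E2 differed was tested by the interaction of activation and experiment over all 24 libraries. The edgeR quasi-likelihood test called 0 of the 89 members expressed in both experiments (29 at an unadjusted p below 0.05), and 0% of all 294392 contigs (6613 at an unadjusted p below 0.05). With the replicate block it also called 0 of 89, with 60 at an unadjusted p below 0.05, against 3.03% of all contigs. For contig 105745 the interaction was 6.56 on the log2 scale with an unadjusted p of 0.0023 and an adjusted p of 1.00. No member was therefore called as differing in response between E2 and E1, and the contigs are named here by the rule that chose them. This test used the contrasts of the rule and is a description.

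Side within E1 gave a measure that the rule did not use, because left and right were balanced over activated and control parts. Of the 89 members expressed in E1, 59 (66.3%) had a higher mean log2 level on the left and 30 on the right, with a median left minus right of 0.20. Of all 294392 contigs expressed in both experiments, 50.5% were higher on the left with a median of 0.00. The 696 contigs with a mean E1 difference of at least 0.3 were higher on the left in 76.0% with a median of 0.18, so the lean to the left was not particular to the 91 contigs. By snail, the left part was higher in 51, 52, 41, 51, 48 and 54 of the 91 contigs and lower in 29, 31, 42, 36, 32 and 23 in snails 1 to 6. The sources conflict on whether the left parts carried the visceral ganglion, and its part in these values was not tested.

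In the test of left against right over the E1 libraries (edgeR quasi-likelihood test with activation as a term, adjusted p below 0.05), 1 of the 89 members was called, where 0.0794% of 387774 expressed contigs were called. At an unadjusted p below 0.05 there were 9 members (10.1%), all higher on the left, against 2.19% of all contigs. The replicate block raised the members called to 10, of which 9 were higher on the left, while 1402 contigs of all were then called higher on the left and 1096 on the right. DESeq2 called 2 of the 89, and of all contigs 347 higher on the left and 335 on the right.

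The member called was that of place 68. In the E1 left parts it had 17.4, 24.0 and 24.7 CPM when activated (snails 1, 2 and 3) and 46.0, 51.5 and 31.0 CPM as control (snails 4, 5 and 6). In the E1 right parts it had 3.53, 3.35 and 4.89 CPM when activated (snails 4, 5 and 6) and 3.35, 2.20 and 2.17 CPM as control (snails 1, 2 and 3). The sides did not overlap, and the log2 fold change of left over right was 3.23 (adjusted p = 0.0011, and at most 0.0064 with any 1 library left out). In E2 the same contig was scarce. Activated parts of snails 8, 9, 10, 11 and 13 had 0.612, 1.08, 0.304, 4.62 and 0.145 CPM, against 0.257, 0.702, 0.0481, 0 and 0.0708 CPM in control parts.

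The last contig in the order, at place 91, also separated the sides. In E1 its left parts had 7.08, 13.8, 9.99, 12.8, 17.0 and 14.1 CPM in snails 1 to 6, against 5.91, 3.45, 5.46, 4.40, 3.26 and 4.97 CPM in the right parts, without overlap. Left over right was 1.37 on the log2 scale with an adjusted p of 0.23 in the quasi-likelihood test, of 1.43e-07 with the replicate block and of 1.52e-06 by DESeq2. In E2 the control part of snail 12, a left part outside the choice, held its highest value, 38.2 CPM, while activated snail 7, a right part, had 3.68 CPM. In the activated parts used for the choice it had 27.4, 18.5, 3.79 and 22.4 CPM on the left (snails 8, 10, 11 and 13) and 5.65 CPM on the right (snail 9), against control parts of 5.91, 3.57, 3.71 and 3.52 CPM on the right and 5.64 CPM on the left. In 5 of the 89 members, including those of places 68 and 91, the left part was higher in all 6 E1 snails, and in 1 the right part was. Of all 294392 contigs expressed in both experiments, 3948 were higher on the left in all 6 snails and 4112 on the right. Of the 696 contigs, 0 were so on either side. Such a contig has E1 differences of both signs, since the left part was the activated one in 3 of 6 snails. The limit on the mean E1 difference works against this in the 696, so nothing is read from the contrast with the members.

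Activated snail 7 and control snail 12 gave another measure outside the choice, with 1 library per condition and therefore no test. Of the 91 contigs, 42 (46.2%) were higher in activated snail 7, 41 were lower and 8 were equal, with a median log2 difference of 0.00 and quartiles of -0.69 and 0.81. Among all 317414 expressed contigs, 159811 (50.3%) were higher, 115690 were lower and 41913 were equal, with a median of 0.01. The 696 contigs with a mean E1 difference of at least 0.3, chosen by the same E2 conditions, were higher in 84.2% with a median of 1.04. The 91 contigs thus had no common direction in this pair, whereas the 696 had one. This pair crosses 2 animals, and its activated part was the right one, the reverse of 4 of the 5 snails of the choice, so that animal, side and activation cannot be told apart in it. The number of members higher in activated snail 7 was 40 with TMM-scaled library sizes.

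Single members lay at both ends. Contig 426920 had the largest difference in this pair (5.90 on the log2 scale, 29.4 CPM in activated snail 7 against 0 in control snail 12). The member at place 67 had the smallest, -5.54, with 0 CPM in activated snail 7 against 22.7 CPM in control snail 12. In E1, where the left part of that member was higher in all 6 snails, its mean left minus right was 1.16. Activated snail 7 lay above the median of the 5 control libraries of the choice in 57 of the 91 contigs, and control snail 12 did so in 64.

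**Figure D4:**
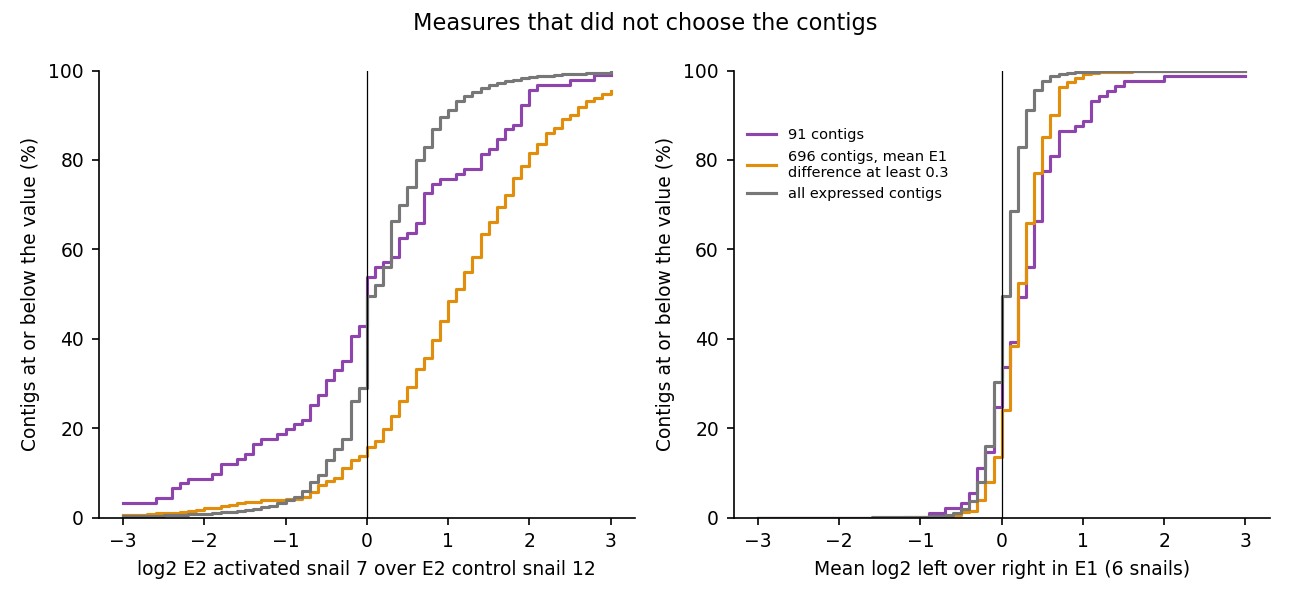
Cumulative share of contigs (percent, vertical axis) by log2 difference of activated snail 7 over control snail 12 in E2 (left panel) and by mean log2 difference of left over right in the 6 E1 snails (right panel), for the 91 contigs, the 696 contigs with a mean E1 difference of at least 0.3, and all expressed contigs. The median of the left panel is 0.00 for the 91 and 1.04 for the 696, and that of the right panel is 0.20 for the 91 and 0.18 for the 696.

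The member at place 62 had the highest mean in control E1 parts. It had 8.84, 17.6, 12.5, 5.58, 96.3 and 16.4 CPM in the activated E1 parts of snails 1 to 6, against 9.04, 20.8, 12.6, 7.46, 118 and 23.9 CPM in the control parts, slightly lower in the activated part of each snail (mean difference -0.25 ± 0.20, SD, n = 6). Its levels in E2 were far lower, at 5.23, 1.08, 0.152, 0.0806 and 2.60 CPM in the activated parts of snails 8, 9, 10, 11 and 13, against 0.109, 0.380, 0.0582, 0 and 0.0708 CPM in control parts. In the pair outside the choice it had 0.116 CPM in activated snail 7 and 0.375 CPM in control snail 12.

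Contig 1398029 (c-fos/fosl2) shows the response of a known immediate early gene in the same libraries. In E2 it had 98.8, 184, 187, 163 and 92.6 CPM in the activated parts of snails 8, 9, 10, 11 and 13 and 152 CPM in that of snail 7, against 23.7, 29.4, 56.4, 7.82 and 13.2 CPM in the control parts and 64.6 CPM in that of snail 12. No activated part lay below a control part, on either side. In E1 it had 122, 58.8, 45.3, 37.2, 50.4 and 53.8 CPM in the activated parts of snails 1 to 6, against 1.35, 11.1, 2.93, 12.7, 4.97 and 3.44 CPM in the control parts. The log2 fold change was 2.04 in E2 (edgeR exact test, adjusted p = 0.39, 6.18e-05 with the replicate block in the quasi-likelihood test) and 3.30 in E1 (adjusted p = 0.00051).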

How the data were processed

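RNA from 24 samples of 13 snails was sequenced, 12 libraries each in E2 and E1. The labels name poly A+ RNA, while the methods give removal of rRNA and a stranded kit for total RNA. The authors mapped reads to their own assembly with bowtie and deposited the RSEM expected count of each contig, neither normalized nor filtered. The submitters' processing notes name Bowtie 1.0.0, RSEM 1.2.18 and cutadapt 1.11. Another 11 samples that served the assembly were not used here.

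CPM were computed from column totals with a pseudocount of 0.5. For tests the expected counts were rounded, and contigs with a total above 10 were kept. Activated and control samples were compared with edgeR's exact test (TMM), as in the study, and the interaction and the sides with edgeR's quasi-likelihood test, with p-values adjusted by the Benjamini-Hochberg method over all contigs. For single contigs, exact sign-flip permutation tests over snails were used. The software was R 4.3.3, edgeR 4.0.16, limma 3.58.1 and DESeq2 1.42.0, tested on simulated data.

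Both libraries of a snail number are from the same animal. Where the mean count was 50 or more, deviations from group means correlated at 0.373 to 0.742 within E2 snails and 0.699 to 0.790 within E1 snails, and at most at 0.102 between snails.

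The members, the lists and the way of naming contigs were chosen with earlier results of these data known. Named by number were the first 2 members in the order, the 2 with the lowest mean E1 difference and c-fos/fosl2. Others are given by place: 3 to 10 and the last (the list holds 91, not 100), the most abundant in the controls of each experiment, those called between sides, and both extremes of the E2 pair not used in the choice. Alternatives covered the test, block, side, scaling, filter, pseudocount and each library. Floors of 3 counts cover counting error only.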

Additional observations from a re-analysis of the deposited data

Results flagged for a closer look

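Outlying values were sought in 28 groups of 5 or 6 values: the level in each group of libraries of the contigs named by number and of the member at place 3 where it was not 0 throughout, the median difference of the 91 contigs in each experiment, and the total counts. In 9 of the 28, all of them levels of a contig, 1 library lay far above the rest by Dixon's gap (distance to the next value over the range). Its limit of 1 in 20 groups assumes normal values. Levels with many values of 0 are not normal, so the 9 are listed without a comparison to chance. Contig 105745 had 26.7 CPM in activated snail 2 of E1 and 2.20 CPM in control snail 8 of E2. Contig 549085 had its only E1 counts, 0.668 CPM, in control snail 3. The member at place 3 had 4.11 CPM in activated snail 2 and 2.81 CPM in control snail 4 of E1, both left parts. Contig 426920 stood out in activated snail 6 (19.9 CPM) and control snail 2 (13.6 CPM) of E1 and in control snail 11 of E2 (12.4 CPM). Contig 1398029 (c-fos/fosl2) had 122 CPM in activated snail 1 of E1.

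In 2 members every E2 difference was above 0, as the choice requires, and every E1 difference was below 0. The mean E1 difference was -1.30 for contig 868735 and -0.25 for the member at place 62, and their mean E2 differences were 1.68 and 1.39. The interaction test gave both an adjusted p of 1.00, and the choice of the contigs fixed the E2 direction.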

How the results depend on the processing

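The list itself depended on the settings. With a pseudocount of 1 CPM, 39 of the 91 contigs still met the conditions, with a mean E1 difference below 0 it was 42, with TMM-scaled library sizes 65, and with 1 snail left out 57 to 87 (57 without snail 9). More than 100 contigs then met the conditions in some settings, and of the first 100, which the rule keeps, the members were 48 with a pseudocount of 0.25 CPM, 1 without snail 9, 48, 50, 41 and 40 without E2 snails 8, 10, 11 and 13, and 75 without E1 snail 1. The members called higher in E2 numbered 5 by the exact test, 0 by the quasi-likelihood test with or without side as a term, 36 with the replicate block, 9 by DESeq2, 3 with at least 1 CPM in 6 libraries (47 members tested), and 3 to 10 with 1 library left out. In the same order, 76, 0, 943, 171, 116 and 28 to 144 of all contigs were called higher. In E1 the exact test called 0 members, and 0 to 1 with 1 library left out. Between left and right in E1 it was 1 by the quasi-likelihood test, 10 with the replicate block, 2 by DESeq2, 2 with at least 1 CPM in 6 libraries, and still 1 with any 1 library left out. The interaction called 0 members under each of its 3 alternatives, the replicate block among them. The causes of these shifts were not tested. In the replicate block the calls of contigs 426920 and 1398029 in E2 (log2 fold changes 4.90 and 2.65) and of contig 105745 and the member at place 3 between the E1 sides (3.03 and 2.33) were gained, and in the quasi-likelihood test without it the E2 calls of contigs 105745 and 549085 were lost at nearly the same log2 fold changes (6.52 and 6.99). That test called 0 of all contigs in E2, so the loss is not particular to these contigs. None of these results changed direction under the alternatives run. Depth limits the values most in activated snail 9, where 25 members had fewer than 1.5 counts, and the choice of members rests on that library.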
